A study of Mus musculus with 9 samples.

Results

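The HoxA cluster of mouse chromosome 6 was examined for binding of TGIF1 and MEIS1 in MLL-AF9 leukaemia cells. Every deposited peak that overlapped the mm9 interval from 52000000 to 52350000 was taken, a window of 350 kb that spans the cluster. Its members were taken by position, but the locus itself was chosen with earlier results of these data known. It held 70 of the 182249 peaks of the 8 lists. Peaks that overlapped by at least 1 bp were merged across lists, which gave 22 regions in the window and 60709 in the genome. Chromatin immunoprecipitation with sequencing had been carried out with an antibody to TGIF (H-172) and an antibody to Meis, on cells given 4-OHT and on cells given EtOH, with 2 libraries for each of the 4 groups. All groups were bone marrow cells of the C57BL/6 strain, positive for c-kit, that had been transformed with MLL-AF9 and then transduced with pMIG-TGIF1-ER, so the EtOH cells carried the same oncogene and construct as the 4-OHT cells. TGIF1-ER joins TGIF1 to the ligand-binding part of the estrogen receptor, and 4-OHT, given for 20 h, induces it. No group received 4-OHT without the construct, so an effect of the drug and one of induced TGIF1 cannot be told apart. Separate cultures are not named for the replicates in the labels, and the spread between replicates may be technical. The p-values come from exchanging these same libraries between groups and do not measure that spread. A further sample, an IgG precipitation, was not analysed here.

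HOX proteins are homeodomain transcription factors whose genes lie in clusters, and those of the HoxA cluster keep blood progenitors immature. In leukaemias with an MLL fusion such as MLL-AF9, the fusion protein holds Hoxa9 and its neighbours active, and HOXA9 acts together with MEIS1, a homeodomain protein of the TALE class that binds DNA beside HOX and PBX proteins. TGIF1 is a TALE homeodomain protein too, but a repressor, and its recognition letters resemble those of MEIS proteins. The window is named for Hoxa5 and Hoxa6, which act in patterning of the trunk, for Hoxa7 and Hoxa9, which are highly active in MLL-rearranged leukaemia, for Hoxa10, which also favours immature blood cells when overproduced, and for Hoxa11, known mainly for limb and uterine development. In the RefSeq annotation of GRCm38 these 6 genes follow one another in this order among the protein-coding genes, with Mir196b between Hoxa9 and Hoxa10. Hoxa13 and Evx1 follow Hoxa11, and Skap2 and Hibadh lie to either side of the cluster. The peaks are in mm9, for which no annotation was used here, so no peak is assigned to a single gene, and positions are given in mm9 or as the distance from the start of the window.

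The RefSeq promoters of the 6 genes (GRCm38.p6, 250 bases before to 50 after each gene start, 7 promoters because Hoxa10 has 2 starts) were searched on both strands for letters that TALE proteins recognise. They are shown because they are the sequence nearest to the genes that name the window. Whether a peak covers them was not determined, since their coordinates and those of the peaks belong to different builds. TGTCA, the core recognised by TGIF and MEIS proteins, was found in 2 of the 7 promoters, beside 45.4% of all 32851 promoters. TGACAG, which contains the reverse complement of TGTCA, was found in none of the 7, beside 19.2% of all. ATGATTTA, a HOX and PBX composite core, was found in none, beside 0.673% of all. Over the 14 promoters found for genes of the cluster and its neighbours, which include these 7, TGTCA was in 6, TGACAG in 2 and ATGATTTA in 0. In the stretches below, which end at the base before the gene start, capitals mark TGTCA. The Hoxa11 match lies at positions -81 to -77 from the start. In the second Hoxa10 promoter a match lies at positions -202 to -198, and another, outside the stretch shown, at bases 7 to 11 after the start. The Hoxa9 promoter had no match to any of the 3 words.
Hoxa9, chr6:52227371-52227620 (GRCm38.p6, minus strand): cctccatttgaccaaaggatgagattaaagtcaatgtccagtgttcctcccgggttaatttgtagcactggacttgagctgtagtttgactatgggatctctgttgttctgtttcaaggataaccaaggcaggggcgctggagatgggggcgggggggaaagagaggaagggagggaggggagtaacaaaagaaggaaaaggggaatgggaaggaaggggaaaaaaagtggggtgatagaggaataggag
Hoxa10, second start, chr6:52234940-52235189 (GRCm38.p6, minus strand): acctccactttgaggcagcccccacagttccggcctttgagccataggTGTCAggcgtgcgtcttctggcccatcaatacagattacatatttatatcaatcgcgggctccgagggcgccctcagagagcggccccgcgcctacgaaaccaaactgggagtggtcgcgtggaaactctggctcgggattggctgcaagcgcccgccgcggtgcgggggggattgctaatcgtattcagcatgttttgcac
Hoxa11, chr6:52245811-52246060 (GRCm38.p6, minus strand): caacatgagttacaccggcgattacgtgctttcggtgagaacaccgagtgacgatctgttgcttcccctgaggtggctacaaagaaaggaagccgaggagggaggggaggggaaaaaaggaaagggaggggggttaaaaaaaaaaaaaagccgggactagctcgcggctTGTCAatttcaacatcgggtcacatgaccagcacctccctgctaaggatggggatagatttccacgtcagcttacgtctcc

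Binding was concentrated in the middle of the window. A stretch of 46.4 kb, on chromosome 6 from 52161120 to 52207478 (mm9), held 15 of the 22 regions and 47 of the 70 peaks (67.1%). The stretch was drawn from these same peaks, with a cut wherever no list had a peak for over 20 kb. Empty flanks therefore follow from the rule, and they were 51.3 kb long before the stretch and 48.3 kb after it. How often peaks cluster in this way in other windows was not measured. In the stretch, TGIF1 4-OHT replicates 1 and 2 had 1 and 9 peaks, and the TGIF1 EtOH replicates had none. MEIS1 4-OHT replicates 1 and 2 had 6 and 10 peaks there, and MEIS1 EtOH replicates 1 and 2 had 7 and 14. The other 7 regions were spread over the rest of the window: 4 lay before the dense stretch and 3 after it. MEIS1 peaks of replicate 1 lists were found at the 4 before it and at none of the 3 after it, where only the replicate 2 lists of both treatments had peaks.

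**Figure D1:**
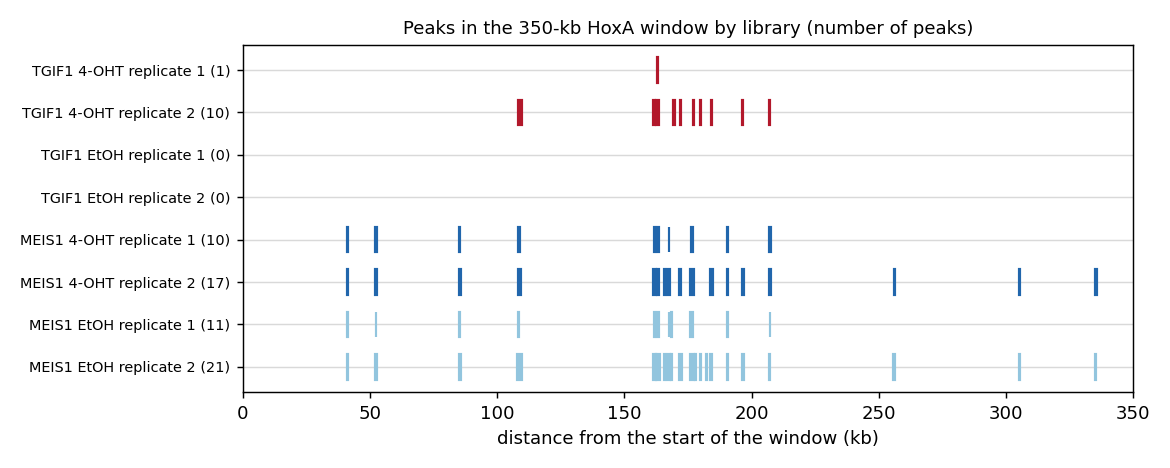
Peaks of each of the 8 libraries (rows) along the 350-kb HoxA window, with distance from the start of the window in kb on the x axis; each bar is a peak, drawn with a minimum width so that it can be seen. The number of peaks is given beside each library, and 47 of the 70 peaks lie in the stretch of 46.4 kb in the middle.

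TGIF1 peaks in the HoxA window were found after induction and in neither EtOH library. TGIF1 4-OHT replicate 1 had 1 peak and replicate 2 had 10, and both TGIF1 EtOH libraries had 0. The groups do not overlap, but nearly all peaks came from a single library. The share of windows of the genome in which these groups do not overlap was not measured. In the windows of 350 kb on either side, given at the end, they did not overlap either. The mean was 5.5 ± 6.36 peaks in TGIF1 4-OHT libraries and 0 ± 0 in TGIF1 EtOH libraries (SD, n = 2 each), a difference of 5.5 that is smaller than the spread between the 4-OHT replicates. The two-sided exact permutation test gave p = 0.333, the smallest value that 2 against 2 libraries can give. The difference was 10 without TGIF1 4-OHT replicate 1 and 1 without TGIF1 4-OHT replicate 2. The peaks covered 572 and 6650 bp of the window in TGIF1 4-OHT replicates 1 and 2, against 0 bp in both TGIF1 EtOH libraries (two-sided exact permutation p = 0.333).

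The lists these peaks came from differed greatly in length. The TGIF1 4-OHT lists held 12141 and 26932 peaks in all, and the TGIF1 EtOH lists 2764 and 592. In TGIF1 EtOH replicate 1, 69.3% of the 5429 windows of 350 kb that held a peak of any list had no peak, and in TGIF1 EtOH replicate 2 it was 90.9%, so an empty window was the usual state of these lists. The lists give no read numbers, the depth is unknown, and a missing peak does not show that TGIF1 was absent. Per 10000 peaks of the same list, the window held 0.824 and 3.71 peaks in TGIF1 4-OHT replicates 1 and 2. As many summits as in the HoxA window, or more, were found in 62.8% of windows for TGIF1 4-OHT replicate 1 and in 18.0% for replicate 2. The median window held 1 and 3 TGIF1 peaks in these lists. With every TGIF1 list reduced to its 592 longest peaks, no library had a peak in the window. That cut keeps few of the 12141 and 26932 peaks of the TGIF1 4-OHT lists, so an empty window says little here.

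**Figure D2:**
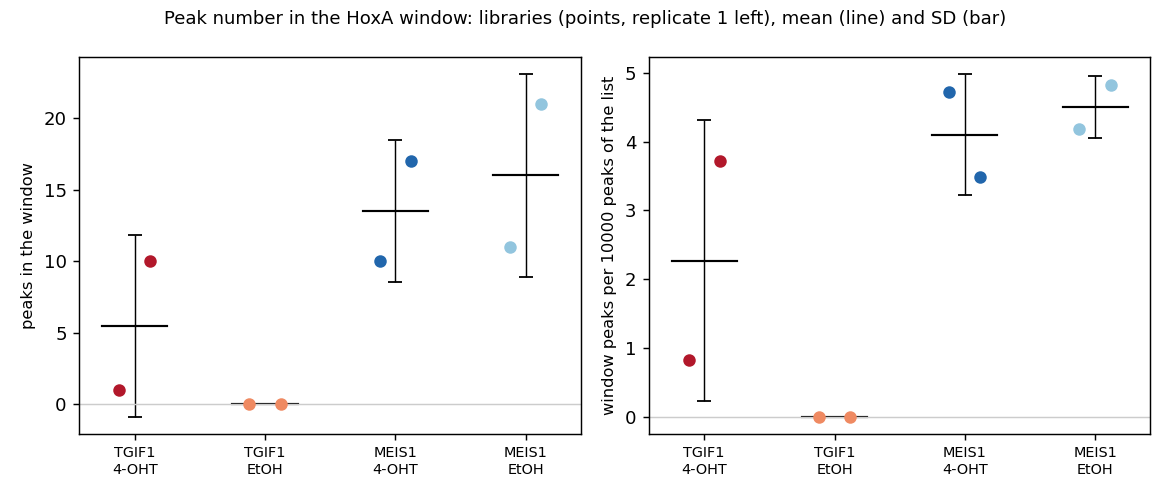
Peaks in the HoxA window (left, number of peaks; right, per 10000 peaks of the same list) in each of the 4 groups on the x axis; points are libraries with replicate 1 on the left, the line is the mean and the bar the SD (n = 2). TGIF1 EtOH libraries are at 0, TGIF1 4-OHT replicates 1 and 2 at 1 and 10, and the MEIS1 groups overlap.

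A single region carried TGIF1 in both 4-OHT libraries. It lay on chromosome 6 from 52162488 to 52163825 (mm9), near the start of the dense stretch, and with peaks in 6 lists it was the most widely called region of the window. The TGIF1 peaks were 572 and 993 bp long in TGIF1 4-OHT replicates 1 and 2, longer than 78.9% and 85.3% of their lists. Their summits, at 52163083 and 52163080, were 3 bp apart. All 4 MEIS1 libraries had a peak there too, 937 and 1122 bp long in MEIS1 4-OHT replicates 1 and 2 and 912 and 1255 bp in MEIS1 EtOH replicates 1 and 2. By this rule of both 4-OHT libraries and no EtOH library, 1 of 22 regions of the window was called, beside 14.3% of all regions. With at least 1 4-OHT library, 10 of 22 were called, beside 39.7%, and TGIF1 EtOH peaks lay at 0 of 22, beside 4.58%. Of the 10 regions with a peak in TGIF1 4-OHT replicate 2, 1 was shared with replicate 1, against 42.1% of such regions in the genome.

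The other 9 TGIF1 regions were called in TGIF1 4-OHT replicate 2 alone. Their peaks were 327 to 1541 bp long. The longest, 1541 bp, lay apart from the dense stretch in the region on chromosome 6 from 52107913 to 52109838 (mm9) and was longer than 96.3% of the peaks of its list. The shortest, 327 bp in the region from 52206850 to 52207478, was longer than 1.76% of its list. The region from 52169213 to 52169675 had a TGIF1 peak of 463 bp and no MEIS1 peak, and it is singled out after its values were seen. Thus 9 of the 10 TGIF1 regions of the window also carried MEIS1 in some list, beside 77.8% in the genome. MEIS1 in all 4 libraries was carried by 5 of the 10, beside 32.3%. These counts are of merged regions. At 1 of the 5, from 52175880 to 52177415, the TGIF1 peak itself overlapped MEIS1 peaks of 2 lists alone.

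MEIS1 peaks were found in the window under both treatments, in the dense stretch and at separate places outside it. A MEIS1 peak of some library was present in 21 of the 22 regions, near the 89.9% of all merged regions, and 12 of these 21 had no TGIF1 peak, beside 62.0% in the genome. MEIS1 4-OHT replicates 1 and 2 had 10 and 17 peaks, and MEIS1 EtOH replicates 1 and 2 had 11 and 21. The groups overlap, and in both treatments replicate 2 had more peaks, as its lists were also longer in all: 21173 and 48829 peaks in MEIS1 4-OHT replicates 1 and 2, and 26254 and 43564 in MEIS1 EtOH replicates 1 and 2. Per 10000 peaks of the list, the window held 4.72 and 3.48 in MEIS1 4-OHT and 4.19 and 4.82 in MEIS1 EtOH. As many summits as in the HoxA window, or more, were found in 9.08% and 17.4% of windows for MEIS1 4-OHT replicates 1 and 2, and in 13.2% and 7.85% for MEIS1 EtOH replicates 1 and 2. The median window held 3 and 7 peaks in the MEIS1 4-OHT lists and 3 and 6 in the MEIS1 EtOH lists.

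The MEIS1 peak number did not differ beyond the spread between libraries. The mean was 13.5 ± 4.95 peaks in MEIS1 4-OHT libraries and 16 ± 7.07 in MEIS1 EtOH libraries (SD, n = 2 each), and the 4-OHT minus EtOH difference was -2.5 (two-sided exact permutation p = 0.667). The sign turned with single libraries. The difference was 1 when MEIS1 4-OHT replicate 1 was left out and 2.5 when MEIS1 EtOH replicate 2 was left out. It was -6 when MEIS1 4-OHT replicate 2 was left out and -7.5 when MEIS1 EtOH replicate 1 was. With each MEIS1 list reduced to its 21173 longest peaks it was 0, from 10 and 13 peaks in each treatment. Covered bases were 5397 and 13337 bp in MEIS1 4-OHT replicates 1 and 2 and 4803 and 16184 bp in MEIS1 EtOH replicates 1 and 2. Their difference of means was -1126.5 bp (two-sided exact permutation p = 1), and it was 2843.5 bp with MEIS1 4-OHT replicate 1 left out and 4564 bp with MEIS1 EtOH replicate 2 left out. With MEIS1 4-OHT replicate 2 left out it was -5096.5 bp, and with MEIS1 EtOH replicate 1 left out it was -6817 bp.

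MEIS1 was present in all 4 libraries at 10 regions. This was 10 of 21 MEIS1 regions in the window, beside 29.0% in the genome. In mm9 on chromosome 6, the first 4 of them lay before the dense stretch, from 52040988 to 52041506, from 52051939 to 52052638, from 52084983 to 52085639 and from 52107913 to 52109838. The other 6 lay within it, from 52161120 to 52162335, from 52162488 to 52163825, from 52166849 to 52167946, from 52175880 to 52177415, from 52190141 to 52190858 and from 52206850 to 52207478. Of these 10 regions, 5 had TGIF1 in at least 1 4-OHT library, beside 54.2% in the genome, and 1 had it in both, beside 32.4%. The first 3 regions, which lie farthest from the dense stretch, had no TGIF1 peak in any list.

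The longest of these MEIS1 peaks stood at 3 of the 10 regions. In the region from 52175880 to 52177415 they were 808 and 1507 bp long in MEIS1 4-OHT replicates 1 and 2, and 836 and 1536 bp in MEIS1 EtOH replicates 1 and 2. They were longer than 97.0% and 98.5% of their own lists in MEIS1 4-OHT replicates 1 and 2, and than 98.9% and 97.9% in MEIS1 EtOH replicates 1 and 2. In the region from 52162488 to 52163825 the MEIS1 peaks were longer than 98.5% and 94.1% of their lists in MEIS1 4-OHT replicates 1 and 2, and than 99.3% and 94.8% in MEIS1 EtOH replicates 1 and 2. In the region from 52107913 to 52109838 they were 617 and 1206 bp in MEIS1 4-OHT replicates 1 and 2, and 450 and 1672 bp in MEIS1 EtOH replicates 1 and 2. Here they ranked lower in the replicate 1 lists: they were longer than 89.3% and 95.6% of their lists in MEIS1 4-OHT replicates 1 and 2, and than 75.5% and 98.7% in MEIS1 EtOH replicates 1 and 2. The replicate 2 peak was longer than the replicate 1 peak in 10 of the 10 regions under 4-OHT and in 10 of 10 under EtOH. Peaks of the whole replicate 2 lists were longer too. Median peak length was 442 and 571 bp in MEIS1 4-OHT replicates 1 and 2, and 362 and 633 bp in MEIS1 EtOH replicates 1 and 2. The share of all regions of the genome with a longer replicate 2 peak was not measured.

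Between treatments the peak lengths at these 10 regions went opposite ways in the 2 replicates. The MEIS1 4-OHT peak was longer than the MEIS1 EtOH peak in 9 of 10 regions for replicate 1 and in 2 of 10 for replicate 2. The medians of the whole lists stood in the same orders: median peak length was 442 bp in MEIS1 4-OHT replicate 1 and 362 bp in MEIS1 EtOH replicate 1, and 571 bp in MEIS1 4-OHT replicate 2 and 633 bp in MEIS1 EtOH replicate 2. The share of all regions of the genome with a longer 4-OHT peak was not measured, so these counts are not shown to be particular to the window. Regions of 1 locus are not replicates, and no test was made of them.

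**Figure D3:**
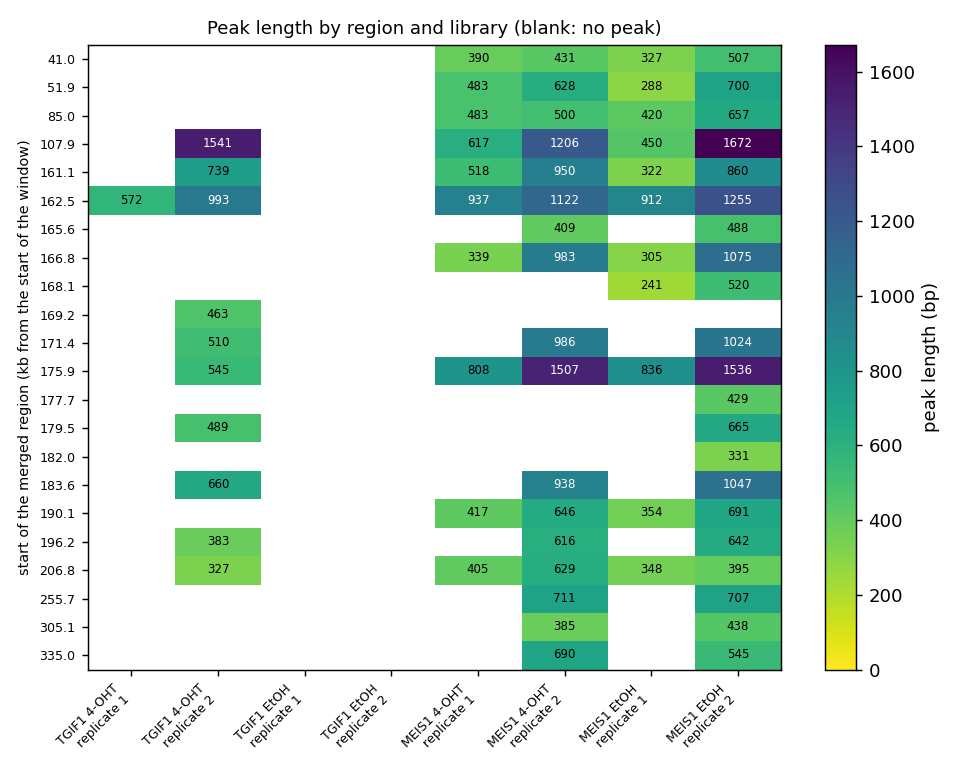
Length in bp (colour and number) of the peak in each of the 22 merged regions (rows, labelled by distance of the region's start from the start of the window in kb) in each library (columns); blank cells hold no peak. The 10 regions with all 4 MEIS1 cells filled include the longest peaks, and cells of replicate 1 are blank in 10 of the 21 MEIS1 rows.

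One MEIS1 region was called in both EtOH libraries and in neither 4-OHT library. It lay on chromosome 6 from 52168113 to 52168632 (mm9), within the dense stretch, with MEIS1 EtOH peaks of 241 and 520 bp in replicates 1 and 2 whose summits were 14 bp apart. These were short peaks, longer than 7.66% and 18.2% of their lists, and no TGIF1 peak overlapped them. This was 1 of the 11 regions with MEIS1 in both EtOH libraries, beside 2.89% in the genome, and no region of the 10 with MEIS1 in both 4-OHT libraries lacked it under EtOH, beside 3.24%. The threshold used by the caller is not known. With the longer part of each list, with lists of equal length, or with a reciprocal overlap of 50% there was no such region, and without MEIS1 EtOH replicate 1 there were 4.

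The 166 bp before this region separated it from a region with MEIS1 in all 4 libraries, from 52166849 to 52167946. There the peaks were 339 and 983 bp long in MEIS1 4-OHT replicates 1 and 2, and 305 and 1075 bp in MEIS1 EtOH replicates 1 and 2. The 4 summits of that neighbour lay within 38 bp of each other. MEIS1 was thus called in both treatments next to the region that lacked a 4-OHT peak.

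MEIS1 at the remaining 10 of the 21 MEIS1 regions was called in replicate 2 lists alone, beside 46.3% in the genome. At 7 of these 10 both MEIS1 4-OHT replicate 2 and MEIS1 EtOH replicate 2 had a peak, beside 51.8% of such regions in the genome. At 0 of the 10 only MEIS1 4-OHT replicate 2 had one, beside 32.5%, and at 3 only MEIS1 EtOH replicate 2, beside 15.7%. No region had MEIS1 in replicate 1 lists alone. The 3 found in MEIS1 EtOH replicate 2 alone had peaks of 331, 429 and 665 bp, and 3 of 21 MEIS1 regions with a peak in 1 library compares with 25.8% in the genome. TGIF1 4-OHT replicate 2 had a peak in 4 of these 10 regions, beside 28.3% in the genome. The part that list length or read depth had in these calls was not tested.

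MEIS1 summits lay close together in most overlapping peaks. Over the 68 pairs of overlapping MEIS1 peaks of different libraries, the median distance between summits was 15.5 bp, and 58 pairs lay within 50 bp. Another 5 pairs were over 200 bp apart, and 4 of these, at 397 to 424 bp, came from the region from 52162488 to 52163825 and set a replicate 1 against a replicate 2 list. Between treatments it was 20.5 bp over 10 pairs for MEIS1 4-OHT replicate 1 with MEIS1 EtOH replicate 1, against 16 bp for the same lists in the genome. For MEIS1 4-OHT replicate 2 with MEIS1 EtOH replicate 2 it was 12 bp over 17 pairs, against 13 bp in the genome. Summits lay within 50 bp in 9 of 10 and 14 of 17 of these pairs, near the 86.0% and 85.6% of the genome. For all 68 pairs, which share peaks, the share in the genome was not measured. Summits over 200 bp apart were seen in 0 of 10 and 1 of 17 of the pairs between treatments, beside 3.48% and 6.41% in the genome. The 1 such pair of 17 was in the region from 52171405 to 52172451, singled out after its values were seen, where the summit lay at 52172161 in MEIS1 4-OHT replicate 2 and at 52171728 in MEIS1 EtOH replicate 2, 433 bp apart. A peak there was found in no replicate 1 list, so this shift has no replicate.

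TGIF1 summits in the window fell into those that coincided with MEIS1 and those that stood aside. TGIF1 4-OHT replicate 2 had 9 peaks that overlapped a MEIS1 peak. At 3 of them every overlapping MEIS1 summit lay within 100 bp, at 4 every one lay over 200 bp away, and at the other 2 the MEIS1 lists differed among themselves. Summits lay over 200 bp apart in 3 of 8 pairs with MEIS1 4-OHT replicate 2, beside 23.0% in the genome, and in 5 of 9 with MEIS1 EtOH replicate 2, beside 22.9%. With the replicate 1 lists it was 3 of 4 pairs for MEIS1 4-OHT, beside 17.1%, and 3 of 4 for MEIS1 EtOH, beside 18.2%. The median distance was 52.5 bp with MEIS1 4-OHT replicate 2 and 204 bp with MEIS1 EtOH replicate 2, against 31 bp in the genome for both. The pairs rest on 9 TGIF1 peaks of 1 library and share them, so no test was made. Setting summits of the proteins beside each other by library was a choice made after seeing the values.

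Close summits were found at the region from 52206850 to 52207478, where TGIF1 lay 1 to 20 bp from the 4 MEIS1 summits. They were also found at the regions from 52183566 to 52184633 (11 to 14 bp) and from 52196207 to 52196848 (23 to 68 bp). Both of these had MEIS1 in replicate 2 lists alone and are singled out after their values were seen. The widest separation was at the region from 52175880 to 52177415, which held the long MEIS1 peaks described above. The TGIF1 summit there, at 52177102, was 831 and 832 bp from the 2 MEIS1 summits of the replicate 2 lists, and the TGIF1 peak touched neither replicate 1 peak. At the region from 52107913 to 52109838 the TGIF1 summit was 455 to 489 bp higher on the chromosome than the 4 MEIS1 summits, and at the region from 52161120 to 52162335 it was 386 to 397 bp lower. At the region from 52179531 to 52180282, singled out after its values were seen, the TGIF1 summit was 204 bp from the MEIS1 EtOH replicate 2 summit. No MEIS1 4-OHT list had a peak in that region, so the proteins were not called there under the same treatment.

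**Figure D4:**
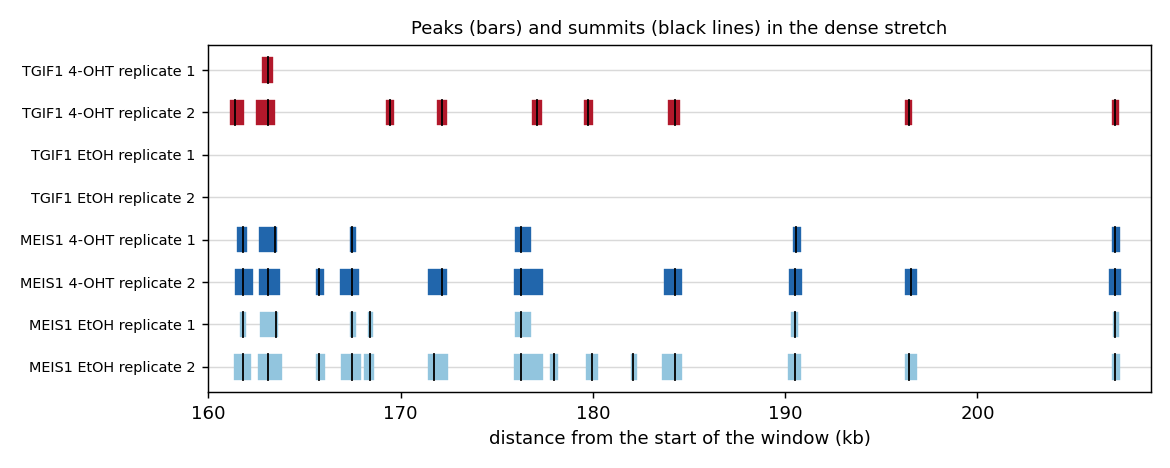
The dense stretch of the window at larger scale, with distance from the start of the window in kb on the x axis and libraries in rows; bars are peaks to scale and black lines their summits. TGIF1 and MEIS1 summits coincide in the regions near 184 and 207 kb and stand apart in the region near 176 kb.

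The region with TGIF1 in both 4-OHT libraries had 2 MEIS1 summit positions, split by replicate number and not by treatment. MEIS1 summits lay at 52163085 in MEIS1 4-OHT replicate 2 and at 52163078 in MEIS1 EtOH replicate 2, within 5 bp of both TGIF1 summits. In the replicate 1 lists they lay at 52163482 for MEIS1 4-OHT and at 52163502 for MEIS1 EtOH, near the far end of the peak. The replicate 1 summits were 399 to 422 bp from the TGIF1 summits. The MEIS1 peaks themselves overlapped in all 4 libraries, and each spanned both positions.

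**Figure D5:**
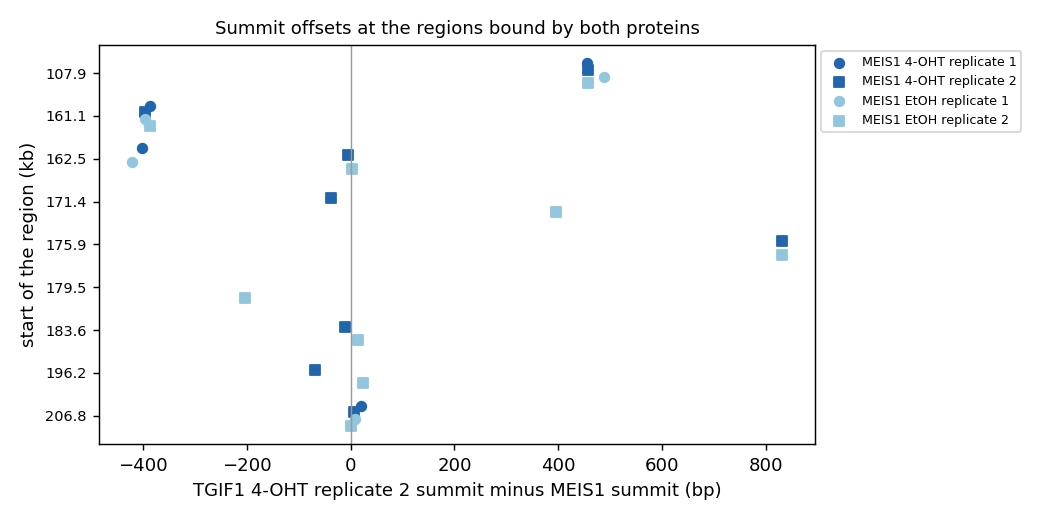
Distance in bp from each overlapping MEIS1 summit to the TGIF1 4-OHT replicate 2 summit (x axis, above 0 where TGIF1 lies higher on the chromosome). The y axis gives the 9 regions with peaks of both proteins in some list, by start in kb from the start of the window. Colour gives the treatment and shape the replicate of the MEIS1 library. At the region near 179.5 kb the MEIS1 peak was in an EtOH list alone. Offsets run from -422 to 832 bp, and at 3 of the 9 regions all points lie within 100 bp of 0.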

How the data were processed

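Peaks were taken from 8 deposited lists, 1 per library, with groups and replicate numbers from the sample titles. Each list gives positions in bp (start, end, length and summit) and no score, height or read number; the depth per library is therefore unknown. Coordinates are those of mm9 and the aligner named is Bowtie 0.12.7, per the submitters' processing notes. The header of 1 list, MEIS1 4-OHT replicate 2, names MACS 1.4.2. The caller of the remaining lists, and the threshold, control and filters of all, were not given in the sources used here. Per the labels' protocols, chromatin was sheared to about 300 bp and E. coli DNA served as carrier, up to 2 ng. The lists hold no expression values, so the labelled cell type was not checked against markers.

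The window and the lists of genes were chosen with earlier results of these data known. Peaks overlapping the window were counted per library, and summits were counted from 1 at the start of the peak. Group means were compared with a two-sided exact permutation test over libraries. Regions were counted and set beside the share of all regions of the genome under the same rule, with no test. Windows of equal size were laid along each chromosome so that the HoxA window was one of them, and those with a peak in any list were used. Named regions were those with a peak in both libraries of at least 1 group; others are given by number and range or are said to be singled out. The planned motif search in regions was replaced by one in RefSeq promoters, since a genome of build mm9 was not used here. Alternatives were the longer part of each list (upper 50% by length), lists of equal length, a reciprocal overlap of 50%, summits within 200 bp, summits inside the window, scaling by the list, the replicate number as a block, and each library left out. Python 3.11.15 with numpy 2.4.6, pandas 2.3.3, scipy 1.17.1 and matplotlib 3.10.9 was used. Merging was checked against bedtools 2.31.1 and gave 60709 regions by both, and equal numbers in 20 of 20 simulated peak sets.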

Additional observations from a re-analysis of the deposited data

How the results depend on the processing

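The difference in TGIF1 peak number between 4-OHT and EtOH kept its direction in 8 of 9 alternatives and was 0 with lists of equal length. The same held for covered bases. Both EtOH lists were at 0, so no alternative could turn either difference. Leaving out single TGIF1 libraries gave 1 to 10 peaks and 572 to 6650 bp. For both proteins, the replicate block and the rule of summits inside the window could not change a difference of means. The groups are of equal size, and every peak of the window had its summit inside. The difference in MEIS1 peak number turned to 1 with the longer part of each list, was 0 with lists of equal length, and ranged from -7.5 to 2.5 over the single libraries left out. The difference in MEIS1 covered bases turned to 154.5 bp with the longer part of the lists and ranged from -6817 to 4564 bp over the libraries left out. The cause was not tested. With the longer part of each list, 5 MEIS1 4-OHT and 4 MEIS1 EtOH regions had a peak in both libraries, in place of 10 and 11, and with a reciprocal overlap of 50% the MEIS1 EtOH regions were 6. MEIS1 regions called in 1 treatment only were 0 under both and with lists of equal length, in place of 1. TGIF1 4-OHT regions called in both libraries, in all or with MEIS1, were 0 with lists of equal length, in place of 1. With 1 library standing for its group, TGIF1 4-OHT regions numbered 1 to 10, those with MEIS1 1 to 9, MEIS1 4-OHT regions 10 to 17, MEIS1 EtOH regions 11 to 21, and MEIS1 regions of 1 treatment 1 to 4.

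Nothing in the labels shows that replicate numbers pair the libraries. With the replicate number as a block, the differences in peak number were 5.5 for TGIF1 and -2.5 for MEIS1 (two-sided exact sign-flip permutation p = 0.5 for both, the smallest that 2 pairs can give). Those in covered bases were 3611 bp for TGIF1 (p = 0.5 by the same exact permutation test) and -1126.5 bp for MEIS1 (exact permutation p = 1). With groups of equal size these differences are the same by arithmetic, and only the p-value could change. Over all merged regions of the genome, presence in replicate 1 minus replicate 2 correlated between 4-OHT and EtOH with r = 0.282 for TGIF1 and 0.228 for MEIS1. Lists that differ in length can give such values, and regions are not replicates. Read depth is unknown and limits every absence reported.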

Other observations

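The windows of 350 kb on either side of the HoxA window carried peaks of the same lists, and their genes were not examined. In the window before it, TGIF1 4-OHT replicates 1 and 2 had 5 and 8 peaks and both TGIF1 EtOH libraries had 0. In the window after it, TGIF1 4-OHT replicates 1 and 2 had 7 and 12 peaks and both TGIF1 EtOH libraries had 0. The HoxA window, with 1 TGIF1 peak in TGIF1 4-OHT replicate 1, thus had fewer in that library than either neighbour. In TGIF1 4-OHT replicate 2 this was not so: its 10 peaks lay between the 8 and 12 of the neighbours. For MEIS1 the window before it held 8 and 12 peaks in MEIS1 4-OHT replicates 1 and 2 and 9 and 12 in MEIS1 EtOH replicates 1 and 2. The window after it held 7 and 16 in MEIS1 4-OHT replicates 1 and 2 and 12 and 18 in MEIS1 EtOH replicates 1 and 2. These values were looked up after the data were seen, and the differences were not tested.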
